A study of Mus musculus with 2 samples.

Results

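The 10 genes described here encode the subunits of the mouse BAF (SWI/SNF) chromatin remodelling complex that exchange when neural progenitors become neurons: Actl6a, Actl6b, Phf10, Dpf1, Dpf2, Dpf3, Ss18, Ss18l1, Smarca4 and Smarca2. They were taken by gene symbol from a deposited table of 17359 genes. The table gives them the Entrez gene numbers 56456 (Actl6a), 83766 (Actl6b), 72057 (Phf10), 29861 (Dpf1), 19708 (Dpf2), 70127 (Dpf3), 268996 (Ss18), 269397 (Ss18l1), 20586 (Smarca4) and 67155 (Smarca2). All 10 were found in it, and all 10 had a mean TPM (transcripts per 1000000, a level per transcript length) of at least 1, as did 12882 genes in all. The table sets mouse neural stem cells transfected with an siRNA against Chd4 (siChd4, genotype labelled Chd4 knockdown, 1 library) against such cells given a scrambled siRNA (siSCR, genotype labelled control, 1 library). Neural stem cells divide to renew themselves and can form neurons and glia, and no other allele or agent is named for either group. The series concerns the nucleoporin Seh1 in neurogenesis, and these libraries ask what follows when Chd4, the ATPase of the NuRD remodelling complex, is lowered.

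BAF complexes use the energy of ATP to move or eject nucleosomes. They are assembled from gene families, and the family member that is built in depends on the cell type. In mouse neural progenitors the complex holds the actin-related protein Actl6a (BAF53a), the PHD finger proteins Phf10 (BAF45a) and Dpf2 (BAF45d), and Ss18. In postmitotic neurons their places are taken by Actl6b (BAF53b), Dpf1 (BAF45b) or Dpf3 (BAF45c), and Ss18l1 (CREST). The exchange of the ATPases Smarca4 (BRG1) and Smarca2 (BRM) is less strict. In mouse neurons, repression of Actl6a by the microRNAs miR-9* (now miR-9-3p) and miR-124 is part of the switch, and these microRNAs are in turn repressed in progenitors by the factor REST.

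The siChd4 library held 20072009 estimated counts, against 19816811 in the siSCR library. Chd4 (Entrez gene 107932) had 203 TPM in siChd4, against 250 TPM in siSCR, or 0.815-fold with a 95% interval from counting of 0.795 to 0.836. It was lower in the library labelled as targeted, though 19.4% of genes had a lower ratio. There was 1 library per group. Every difference is therefore one between these libraries, with no test against variation among cultures, and all intervals given cover counting error only. Stem cell markers ranged widely in level. Fabp7 (7004 TPM in siChd4, against 6105 TPM in siSCR) and Sox2 (336 and 314 TPM in the same order) were abundant. Pax6 (18.6 and 21.6 TPM) and Prom1 (4.72 and 8.37 TPM) were low. The oligodendrocyte lineage genes Olig1 (1872 and 1879 TPM) and Olig2 (880 and 890 TPM) were also abundant. Neither the source of the cells nor the siRNA sequence, dose or time of harvest is stated by the labels.

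The sequences below bear on the Actl6 pair, which miR-9-3p and REST are known to regulate. The mature miR-9-3p is given with its seed (bases 2 to 8) in capitals, followed by the places in the longest annotated 3′ untranslated regions of 2 members that are complementary to that seed, also in capitals. MicroRNA sequence is from RefSeq (GRCm38.p6) and transcript sequence from GENCODE M21 (GRCm38), a build other than the mm39 of the deposited table.
miR-9-3p (Mir9-1, chr3:88215652-88215673, plus strand): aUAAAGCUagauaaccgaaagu
Actl6a (chr3:32726629-32726657, plus strand): tcaacgtctgtAGCTTTAgtacactcagg
Smarca2 (chr19:26777491-26777519, plus strand): catctagaactAGCTTTAgggtagtgcca
The letters AGCTTTA stand in the 3′ region of 2 of the 10 members, Actl6a and Smarca2, and in that of 12.2% of 16421 genes of the table. The seed complement of the other arm, miR-9-5p (ACCAAAG), stands in none of the 10 and in 13.3% of the same genes. A match describes these letters and is not evidence of a working site, and no microRNA was measured.

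The start of Actl6b holds the letters of both parts of RE1, the element that REST binds. The left part CAGCACC and the right part GGACAG were searched on both strands of the RefSeq windows from 250 bases before to 50 bases after each gene start, which 9 of the 10 members have. In Actl6b they lie on the minus strand, in the transcribed 5′ end, and are shown in capitals as read on the plus strand.
Actl6b (chr5:137553564-137553593, plus strand, GRCm38.p6): ggagCTGTCCggccgcctcGGTGCTGatcc
The gap between the parts is 9 bases, where the canonical element has 2. Dpf2 held GGACAG alone, and the other 7 windows held neither part. Among 17041 windows of genes in the table, 7.58% held the left part, 23.2% the right part and 1.92% both. Both parts on the same strand, in the order of the element and with a gap of 0 to 9 bases, stood in 22 windows (0.129%), a range of gaps chosen after that of Actl6b was seen.

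The exchanging subunits did not differ in one common direction. Of the 5 neuronal forms, Actl6b and Dpf1 were higher in siChd4, Ss18l1 was near level, and Dpf3 and Smarca2 were lower. The folds of the 5 progenitor forms lay between 0.839 for Actl6a and 1.17 for Dpf2, a narrower range than the 0.630 to 2.50 of the neuronal forms. The groups also differed in level. The upper end of the neuronal range is Actl6b, at a mean of 3.17 TPM, and the next fold was 1.40, for Dpf1. All progenitor forms had at least 66.8 TPM, where large folds were less frequent over all genes. On the log2 scale of TPM plus 1, which understates differences of low genes, the median of the 10 was -0.01, beside -0.04 over all 12882 genes. The neuronal forms had a median of 0.11 and the progenitor forms one of -0.04. At a limit of 1.5-fold on that scale, 1 member was higher, Actl6b, and 1 was lower, Dpf3. Over all genes the shares past this limit were 6.75% higher and 4.47% lower, so 1 of 10 in each direction is close to the background.

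**Figure D1:**
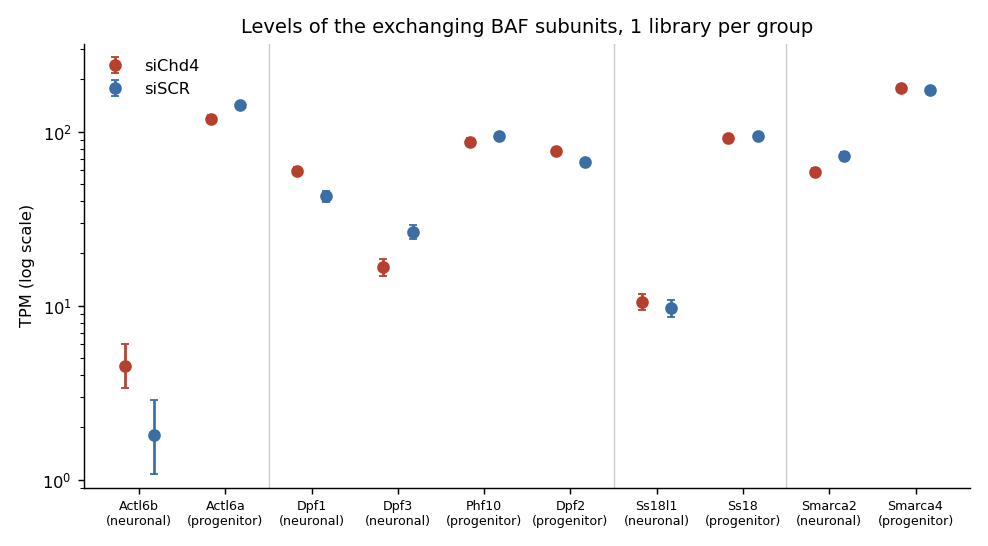
TPM (log axis) of the 10 exchanging subunits in the siChd4 and the siSCR library, with 1 point per library and exact 95% Poisson counting intervals. The progenitor forms lie between 66.8 and 179 TPM in both libraries, and Actl6b, at 4.53 and 1.81 TPM, is the lowest subunit in each.

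**Figure D2:**
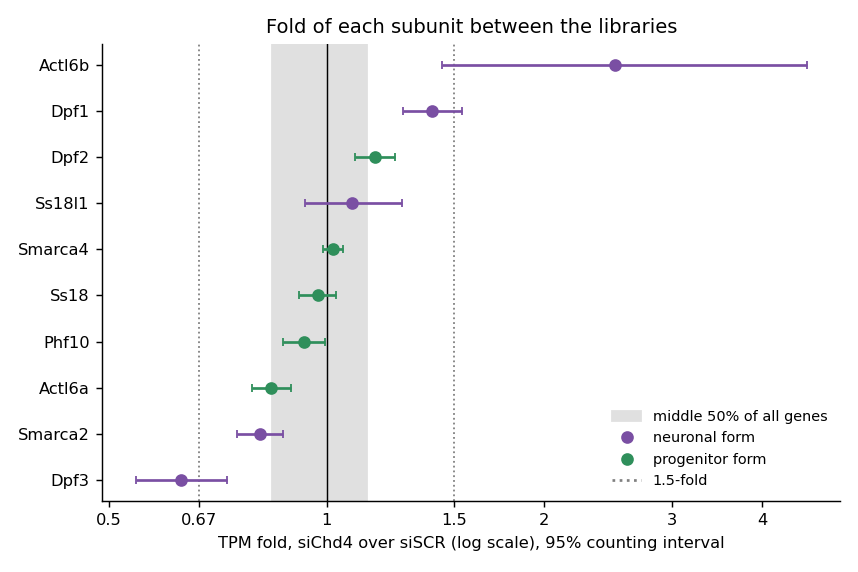
TPM fold of siChd4 over siSCR (log axis) for each subunit, with 95% counting intervals, the middle 50% of all genes (0.839 to 1.14) in grey and 1.5-fold limits as dotted lines. Neuronal forms stand at both ends, with Actl6b and Dpf1 highest and Smarca2 and Dpf3 lowest.

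Actl6b showed the largest fold of the 10 members and rested on the fewest counts. This neuron-specific actin-related protein was at 4.53 TPM in siChd4 (47.6 estimated counts), against 1.81 TPM in siSCR (18 estimated counts). The fold was 2.50 (1.44 to 4.61) and the log2 ratio 0.98, higher than that of 97.6% of the 12882 genes. Differences past 1.5-fold were more frequent at such levels. Of genes with a mean TPM between 1 and 5, 23.8% were past that limit in either direction. The share was 16.1% between 5 and 20 TPM and 5.97% from 20 TPM up. How many low genes differed by as much as Actl6b, and in its direction, was not counted. Its progenitor partner Actl6a, which is also a subunit of the INO80 and TIP60 complexes, had 119 TPM in siChd4, against 142 TPM in siSCR, a fold of 0.839 (0.788 to 0.893). That fold lay at the lower edge of the middle 50% of genes.

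**Figure D3:**
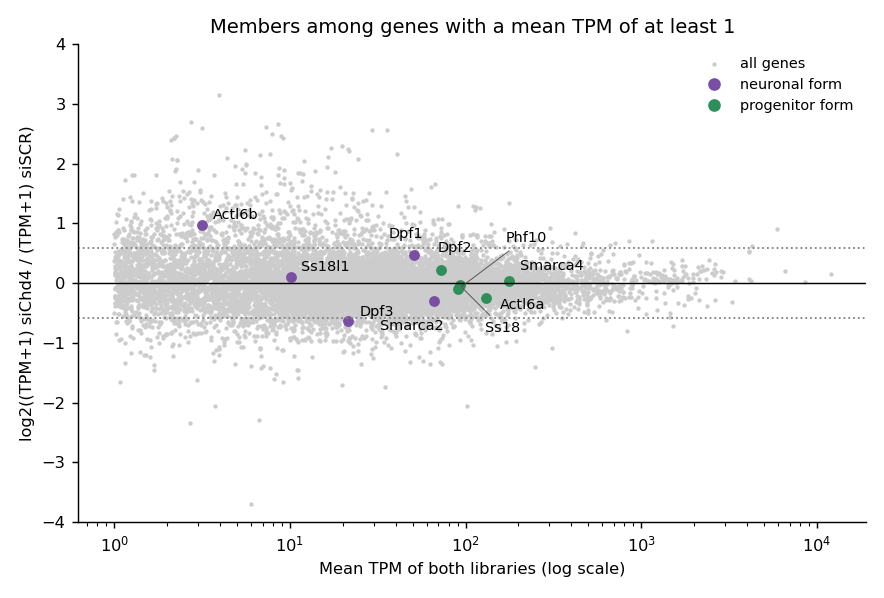
Log2 of TPM plus 1 in siChd4 over that in siSCR, against the mean TPM (log axis) for 12882 genes in grey, with neuronal forms in purple, progenitor forms in green and dotted lines at 1.5-fold. Actl6b lies where the grey cloud is wide, and Dpf3 just past the lower limit.

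The ratio within the pair was higher for Actl6b in siChd4, but Actl6a remained the far more abundant form in both libraries. Actl6a transcripts outnumbered those of Actl6b 26.3 to 1 in siChd4 and 78.4 to 1 in siSCR. Actl6b thus made up 3.67% of the pair in siChd4 (2.75% to 4.87%) and 1.26% in siSCR (0.749% to 1.98%). The Actl6b to Actl6a ratio was 2.98 times as high in siChd4 (1.71 to 5.52). The sum of the pair was 124 TPM in siChd4, against 144 TPM in siSCR, because the lower level of Actl6a outweighed the higher level of Actl6b.

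The BAF45 family split into opposite differences. Dpf1, a neuronal PHD finger subunit, had 59.6 TPM in siChd4, against 42.6 TPM in siSCR, a fold of 1.40 (1.28 to 1.54), from 1117 and 760 estimated counts. Its log2 ratio of 0.48 was below the 1.5-fold limit, yet 9.21% of genes had a higher one. Dpf3, the other neuronal form, had 16.6 TPM in siChd4, against 26.4 TPM in siSCR, a fold of 0.630 (0.545 to 0.727), and 3.43% of genes had a lower log2 ratio. Its ratio of estimated counts was nearer 1, at 0.699, and the transcript length behind its TPM was 2.34 kb in siChd4 and 2.23 kb in siSCR. With 1 added to each value, Dpf3 was no longer past 1.5-fold on FPKM (fragments per kilobase of transcript and 1000000 fragments, log2 -0.54). The added 1 weighs more there, because FPKM values are smaller than TPM. The median log2 ratio of all genes was also higher on FPKM, at 0.02, against -0.04 on TPM. The parts of the added 1 and of this shift were not separated. Dpf3 was also within the limit on counts per 1000000 (CPM) scaled by TMM (log2 -0.53).

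Phf10 and Dpf2, the progenitor forms of this family, also differed in direction. Phf10 had 87.8 TPM in siChd4, against 94.2 TPM in siSCR, a fold of 0.932 (0.871 to 0.996). Dpf2 had 77.9 TPM in siChd4, against 66.8 TPM in siSCR, a fold of 1.17 (1.09 to 1.24). Within each library the order was the same, with Phf10 highest, then Dpf2, Dpf1 and Dpf3. Dpf1 made up 24.6% of the family's TPM in siChd4 and 18.5% in siSCR, while Dpf3 made up 6.88% in siChd4 and 11.5% in siSCR.

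Summed over the family, these differences nearly cancelled. Dpf1 and Dpf3 together were at 76.2 TPM in siChd4, against 69.0 TPM in siSCR, and made up 31.5% of the family in siChd4 (30.2% to 32.8%) and 30% in siSCR (28.6% to 31.4%). The ratio of the neuronal forms to Phf10 plus Dpf2 was 1.07 times that of siSCR, with an interval of 0.981 to 1.17 that includes 1. Taken singly, the ratio of Dpf1 to Phf10 was 0.679 in siChd4 and 0.452 in siSCR, or 1.501 times as high in siChd4 (1.34 to 1.69). The ratio of Dpf3 to Dpf2 was 0.214 in siChd4 and 0.395 in siSCR, or 0.540 times that of siSCR (0.461 to 0.633). The family has no strict one-to-one pairing, and with partners exchanged the folds were nearer 1: 1.20 for Dpf1 to Dpf2 and 0.676 for Dpf3 to Phf10. Between the neuronal forms themselves, a comparison chosen after the values were seen, Dpf1 was 3.58 times the level of Dpf3 in siChd4 and 1.61 times in siSCR.

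The upstream sequences of Actl6b and Dpf3, the members past 1.5-fold in opposite directions, are shown with CpG dinucleotides in capitals, as a view of the promoters from which these transcripts start. Both are RefSeq windows on GRCm38.p6 that end at the base before the gene start, printed 5′ to 3′ on the gene's strand.
Actl6b (chr5:137553296-137553545, plus strand): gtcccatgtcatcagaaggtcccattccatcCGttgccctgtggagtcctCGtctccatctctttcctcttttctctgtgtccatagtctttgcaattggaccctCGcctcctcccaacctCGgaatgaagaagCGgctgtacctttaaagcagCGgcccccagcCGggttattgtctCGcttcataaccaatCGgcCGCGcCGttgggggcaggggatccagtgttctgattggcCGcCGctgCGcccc
Dpf3 (chr12:83487737-83487986, minus strand): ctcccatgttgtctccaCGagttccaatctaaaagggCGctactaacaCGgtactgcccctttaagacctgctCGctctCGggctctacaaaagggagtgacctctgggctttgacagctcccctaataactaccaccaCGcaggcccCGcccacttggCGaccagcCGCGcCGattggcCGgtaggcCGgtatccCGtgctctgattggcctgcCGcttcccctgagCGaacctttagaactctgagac
These windows of 250 bases hold 15 CpG (Actl6b) and 16 CpG (Dpf3), beside a median of 13 over the windows of 13503 genes in the table. The other 7 members with a window hold between 17 (Dpf2) and 51 CpG (Phf10). No methylation or binding was measured, so the counts describe the letters alone.

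Ss18 and its neuronal counterpart Ss18l1 were near level between the libraries. Ss18, a coactivator that binds the ATPase, had 91.6 TPM in siChd4, against 94.3 TPM in siSCR, a fold of 0.972 (0.916 to 1.03). Ss18l1, a calcium-responsive coactivator needed for dendrite growth in mouse neurons, had 10.5 TPM in siChd4, against 9.68 TPM in siSCR, a fold of 1.09 (0.932 to 1.27). Both intervals include 1. Ss18l1 made up 10.3% of the pair in siChd4 (9.30% to 11.4%) and 9.31% in siSCR (8.32% to 10.4%), and its ratio to Ss18 was 1.12 times that of siSCR (0.949 to 1.32). The counting intervals allow a shift of the pair of up to about that upper bound, so they do not show that the ratio was equal.

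In the ATPase pair the neuronal form was the lower one. Smarca4, the main ATPase of progenitor BAF and the most abundant of the 10 members in both libraries, had 179 TPM in siChd4, against 175 TPM in siSCR, a fold of 1.02 (0.988 to 1.05). Smarca2 had 58.9 TPM in siChd4, against 72.9 TPM in siSCR, a fold of 0.808 (0.751 to 0.869), and 18.6% of genes had a lower log2 ratio. It made up 24.8% of the pair in siChd4 (23.7% to 25.9%) and 29.4% in siSCR (28.3% to 30.5%). The Smarca2 to Smarca4 ratio was 0.792 times that of siSCR (0.731 to 0.858), opposite in direction to the Actl6 pair.

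The transcript length behind the level of Smarca2 was shorter in both libraries than its longest coding transcript in GENCODE M21. That annotation is on a build other than the mm39 of the deposited table. The length implied by its counts and FPKM was 2.75 kb in siChd4 and 2.83 kb in siSCR, where its longest annotated coding transcript is 5.92 kb. For Smarca4 the implied lengths were 5.10 and 5.19 kb against 6.38 kb annotated, and for Chd4 6.45 kb in both libraries against 6.70 kb. For Phf10 they were 2.37 kb in siChd4 and 2.40 kb in siSCR, longer than the 1.66 kb annotated. The annotated length is therefore no bound on the length used for the table. Levels of single Smarca2 transcripts, full-length or short, were not analysed here.

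**Figure D4:**
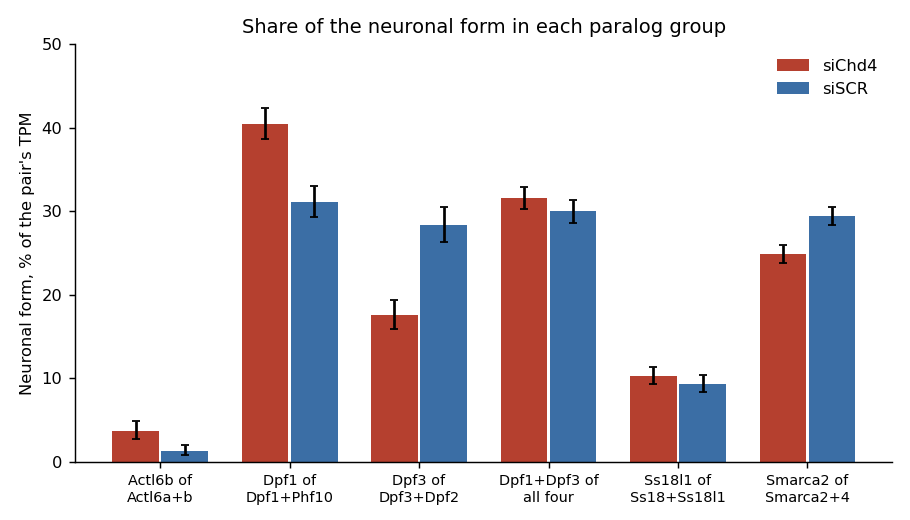
Share of the neuronal form in the TPM of each paralog group, as bars from 0 with 95% counting intervals, siChd4 left of siSCR. The share is higher in siChd4 for Actl6b and Dpf1, lower for Dpf3 and Smarca2, and its intervals overlap for Ss18l1 and for the BAF45 family as a whole.

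The members share almost no sequence with each other, and some share more with other loci. Of the 31-base words in the longest coding transcript of each member, at most 2 occurred in any transcript of another member. Ss18 shared 12.7% of its words with the locus Gm1826, and Actl6a shared 2.22% with Gm13607. The values of these 2 genes may therefore be less certain, but whether the shared words affected them was not tested. Actl6a also overlaps Mrpl47 on the opposite strand (52.7 TPM in siChd4, against 57.9 TPM in siSCR), and Phf10 overlaps 1600012H06Rik (47.2 and 36.9 TPM in the same order). Transcripts annotated as antisense overlap Smarca2 (Gm20616 over 2598 bases and 4931403E22Rik over 9522 bases), Dpf1 (Gm44632 over 1474 bases) and Dpf2 (Gm42067 over 189 bases), and their levels were not analysed here. These overlaps are of whole gene spans, introns included, and overlap of exons was not measured. The labels do not say whether counting used strand. Without it, reads from stretches where exons of both genes overlap cannot be told apart.

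The subunits outside the exchanging positions stayed within 1.5-fold on the TPM plus 1 scale. Arid1a, Bcl7a and Smarcd3 (0.805-fold, 0.742 to 0.873) nonetheless had lower folds than the exchanging subunit Smarca2 (0.808). Of 15 canonical BAF subunits, 0 were past 1.5-fold, 7 had a log2 ratio above 0 and 8 below, and the median was -0.00. The core scaffold genes Smarcb1 (175 TPM in siChd4, against 178 TPM in siSCR) and Smarce1 (127 and 124 TPM in the same order) were nearly level. The DNA-binding subunit Arid1a, which defines canonical BAF, had 59.0 TPM in siChd4, against 75.8 TPM in siSCR, a fold of 0.778 (0.745 to 0.813). Bcl7a had 37.1 TPM in siChd4, against 48.5 TPM in siSCR, a fold of 0.764 (0.707 to 0.826), the lowest of the 15. Bcl11b, a zinc finger subunit of neurons and T cells, had 2.21 TPM in siChd4, against 1.36 TPM in siSCR, a TPM fold of 1.62 (1.23 to 2.15) that stayed under the limit on the TPM plus 1 scale. Its relative Bcl11a had 2.92 TPM in siChd4, against 2.38 TPM in siSCR (1.23-fold, 0.905 to 1.67).

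Ratios within other paralog pairs of the complex, chosen after the values were seen, differed in both directions. The scaffold Smarcc2 (BAF170) had 111 TPM in siChd4, against 99.7 TPM in siSCR, and its partner Smarcc1 (BAF155) had 98.3 TPM in siChd4, against 110 TPM in siSCR. Their ratio was 1.13 in siChd4 and 0.908 in siSCR, or 1.24 times as high in siChd4 (1.17 to 1.32). The ratio of Smarcd3 to Smarcd1 was 0.634 in siChd4 and 0.839 in siSCR, or 0.756 times that of siSCR (0.686 to 0.832). The ratio of Arid1b to Arid1a was 0.348 in siChd4 and 0.314 in siSCR, or 1.11 times as high (1.01 to 1.21).

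Subunits particular to PBAF and noncanonical BAF, the sister complexes, also stayed within 1.5-fold. Of 6 such subunits, 0 were past 1.5-fold, 2 were above 0 and 4 below, with a median log2 ratio of -0.14. Pbrm1, the bromodomain protein of PBAF that is found with Phf10, had 52.0 TPM in siChd4, against 63.4 TPM in siSCR (0.820-fold, 0.783 to 0.858). Brd9, of noncanonical BAF, had 63.6 TPM in siChd4, against 63.3 TPM in siSCR (1.004-fold, 0.930 to 1.08).

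**Figure D5:**
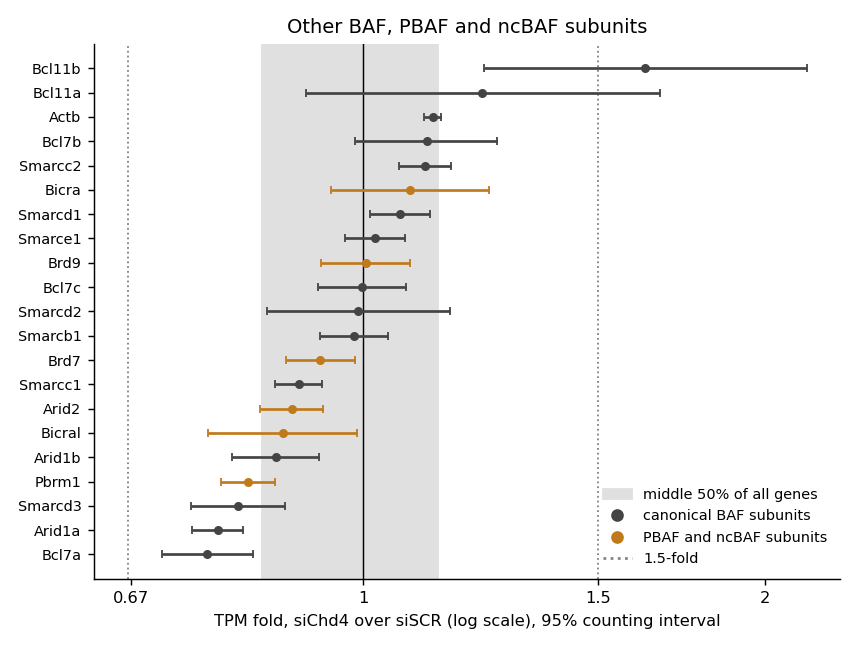
TPM fold of siChd4 over siSCR (log axis) for 15 canonical BAF subunits and 6 subunits of PBAF and noncanonical BAF, with 95% counting intervals, the middle 50% of all genes in grey and 1.5-fold limits as dotted lines. The folds run from 0.764 (Bcl7a) to 1.62 (Bcl11b), and the interval of Bcl11b reaches from 1.23 to 2.15.

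Among known regulators of the switch, 0 of 5 measured genes were past 1.5-fold higher and 2 were lower, with a median log2 ratio of -0.11. The call of Rest was lost on FPKM plus 1 (log2 -0.52), with median-of-ratios scaling (-0.58) and with the trend over transcript length subtracted (-0.46). Rest, the repressor of neuronal genes in progenitors, had 10.7 TPM in siChd4, against 16.95 TPM in siSCR, a fold of 0.629 (0.567 to 0.698). Ptbp2, a splicing factor of immature neurons, had 64.8 TPM in siChd4, against 107 TPM in siSCR, a fold of 0.603 (0.569 to 0.641). Ptbp1, its progenitor counterpart and a target of miR-124 in mouse, had 275 TPM in siChd4, against 298 TPM in siSCR (0.923-fold, 0.893 to 0.955). The REST corepressors Rcor1 (0.980-fold, 0.905 to 1.06) and Rcor2 (1.27-fold, 1.13 to 1.44) stayed within the limit. The list held 8 genes, and the rest were host transcripts of miR-9 and miR-124 (Mir9-3hg, Mir124a-1hg and Mir124-2hg). These had no single entry in the table under those symbols, and other names were not searched.

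Genes that BAF complexes with Actl6b regulate during dendrite growth in mouse neurons differed in both directions. Of 4 measured, 1 was past 1.5-fold higher, Ngef, at 4.09 TPM in siChd4, against 2.39 TPM in siSCR (1.71-fold, 1.20 to 2.45). This call was lost on FPKM plus 1 (log2 0.47), where the added 1 weighs more because FPKM values are smaller than TPM. The growth cone gene Gap43 had 362 TPM in siChd4, against 255 TPM in siSCR (1.42-fold, 1.35 to 1.497). Rap1a, a small GTPase, had 105 TPM in siChd4, against 136 TPM in siSCR (0.769-fold, 0.726 to 0.815). The tubulin-binding gene Stmn2 had 2.39 TPM in siChd4, against 1.37 TPM in siSCR, with an interval of 0.989 to 3.18 that includes 1.

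Markers of neurons differed in the same direction as Actl6b and Dpf1, and opposite to the neuronal forms Dpf3 and Smarca2. Over all genes, 6.75% were past 1.5-fold higher and 4.47% lower. Of 10 neuron markers whose mean TPM reached 1, 6 were past 1.5-fold higher and 0 lower, with a median log2 ratio of 0.93. The 11 markers in the table summed to 722 TPM in siChd4, against 532 TPM in siSCR. Most of this sum was Map2 (516 TPM in siChd4, 427 TPM in siSCR, 1.21-fold). The neuron markers furthest from level were the neuronal tubulin Tubb3 (40.0 TPM in siChd4, 8.70 TPM in siSCR), the intermediate filament Ina (34.3 and 11.4 TPM in the same order) and the microtubule protein Dcx (10.9 and 3.71 TPM). None of the 11 was at 0 in either library.

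Markers of other cell types differed as well. Of 8 oligodendrocyte lineage markers, 5 were higher and 0 lower, Sox10 among them (7.71 TPM in siChd4, against 1.05 TPM in siSCR), with a summed level of 2832 TPM in siChd4, against 2813 TPM in siSCR over the 10 in the table, and the myelin genes Mog and Mag at or under 0.27 TPM. Of 6 astrocyte markers, 0 were past 1.5-fold higher and 2 lower (summed level 1425 TPM in siChd4, against 1789 TPM in siSCR), and by sign 2 had a log2 ratio above 0 and 4 below. The lower ones were the gap junction gene Gja1 (40.8 TPM in siChd4, 105 TPM in siSCR) and the glutamate transporter Slc1a2 (58.4 and 94.1 TPM in the same order), while Aldh1l1 (421 and 309 TPM) and Gfap (10.6 and 8.81 TPM) had log2 ratios above 0. Of 8 stem cell markers, 0 were higher and 1 lower, Prom1 (summed level 12671 TPM in siChd4, against 10188 TPM in siSCR). These sums rest mostly on a few abundant genes. They are Olig1 and Olig2 for oligodendrocytes, and Slc1a3 (878 TPM in siChd4, 1254 TPM in siSCR) for astrocytes. For stem cells they are Fabp7 and Vim (4835 TPM in siChd4, 3340 TPM in siSCR).
The microglia and fibroblast lists summed to low levels, P2ry12 being the most abundant of them. The 4 microglia markers in the table summed to 36.6 TPM in siChd4, against 7 TPM in siSCR, nearly all from P2ry12 (36.1 TPM in siChd4, against 6.84 TPM in siSCR), with Cx3cr1 and Csf1r at or under 0.19 TPM and Aif1 at 0 in siSCR. The 5 fibroblast markers summed to 9.63 TPM in siChd4, against 3.22 TPM in siSCR, with Dcn and Lum at 0 in siSCR. Both fibroblast markers whose mean TPM reached 1 were past 1.5-fold higher, Tagln (6.53 TPM in siChd4, 2.14 TPM in siSCR) and the collagen gene Col1a1 (1.96 and 0.64 TPM in the same order). In bulk RNA, fewer cells of a type and less RNA per cell cannot be told apart, and the part of these markers in the differences of Actl6b, Dpf1, Dpf3 and Smarca2 was not tested.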

How the data were processed

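RNA sequencing of 1 siChd4 and 1 siSCR library was analysed, grouped by title. Per the file headers, the authors deposited FPKM, TPM and read counts per gene. The deposited counts are estimated counts, since 17.8% (siChd4) and 16.0% (siSCR) of values were whole to within 1e-09, and both TPM columns, as deposited, add up to 1000000. Per the submitters' processing notes the genome build is mm39. The aligner, counter and use of strand were not given in the sources used here.

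Members and gene lists were chosen with earlier results of these data known. All 10 members and Chd4 are named. Of other lists, the rule named BAF subunits, list members past 1.5-fold (up to 3 per direction) or the 2 most abundant. Rcor1, Rcor2, Ptbp1, Gap43, Rap1a, Stmn2, Fabp7, Sox2, Pax6, Olig1, Olig2, Mog, Mag, Cx3cr1, Csf1r, Aif1, Dcn, Lum, Aldh1l1, Gfap, Vim, Map2, Slc1a3 and Kat5 fall outside it and were chosen after their values were seen.

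The main value was log2 of siChd4 over siSCR on TPM with a pseudocount of 1, over genes whose mean TPM reached 1. No test was possible with 1 library per group. Fold intervals are exact Clopper-Pearson 95% intervals of counts rounded to whole numbers. Those of ratios within a pair are exact conditional intervals of the odds ratio. Both were multiplied by the ratio of the TPM to the count fold, which for the summed BAF45 family is an approximation. Poisson intervals cover single levels. Without molecular identifiers, reads need not be independent molecules. The floor of 3 counts was 0.149 CPM in siChd4 and 0.151 CPM in siSCR. Implied length is counts over FPKM and summed counts. Interval scripts were tested on simulated data. Alternatives were a pseudocount of 0.1, FPKM, median-of-ratios, upper quartile and TMM scaling (edgeR 4.0.16 in R 4.3.3), subtraction of the length trend (lowess, span 0.3), other filters and limits, and other ratios. Log2 ratios on FPKM and CPM also had 1 added. Python 3.11.15, scipy 1.17.1 and statsmodels 0.14.6 were used.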

Additional observations from a re-analysis of the deposited data

How the results depend on the processing

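Of 60 log2 ratios of single members under other settings, 58 stayed within the counting interval and of the 10 members only Ss18, whose interval includes no difference, changed sign (log2 -0.04 to 0.02). Smarca4 moved to 0.09 on FPKM and to 0.13 with the length trend subtracted. Scalings shifted the median of all genes by at most 0.05. The count of members past 1.5-fold, 1 higher and 1 lower, became 0 higher with a mean TPM of at least 5, which removes Actl6b, 0 lower on FPKM and on CPM with TMM scaling, and 0 in both directions at a 2-fold limit. Pair folds stayed within their intervals on TPM plus 1, on counts and on FPKM (18 of 20 values). Within a library, TPM and FPKM differ by a constant factor, so a ratio within a pair is the same on both but for rounding. The FPKM values of the pairs are therefore no separate check. With the BAF45 partners exchanged, the pair folds were 1.20 for Dpf1 and 0.676 for Dpf3. Among the other lists, 142 of 154 counts were equal to the main count or within 1.5 times it. Many main counts were 0, so much of this agreement is of 0 with 0 and says little about the counts above 0. Canonical BAF subunits had 1 higher, Bcl11b, with a pseudocount of 0.1, with TMM scaling and with the length trend subtracted. Regulators had 1 lower, Ptbp2, with Rest lost, on FPKM, with median-of-ratios scaling and with the length trend subtracted. Dendrite genes had 2 higher, Ngef and Stmn2, with a pseudocount of 0.1 and 0 on FPKM. On FPKM, stem cell markers had 1 higher (Vim) and 0 lower and fibroblast markers 1 higher (Tagln), and astrocyte markers had 1 lower (Gja1) with the length trend subtracted. On FPKM the added 1 was kept, and FPKM values are smaller than TPM, so the ratios of low genes are drawn nearer to level there. The median log2 ratio of all genes was also higher on FPKM (0.02, against -0.04 on TPM). This shift raises the ratios of abundant genes too, such as Vim (log2 0.53 on TPM and 0.59 on FPKM). Other causes of these differences were not tested. Depth limits Actl6b, with 18 counts in siSCR. Leaving out a replicate was not run. No paired analysis was possible because siChd4 and siSCR had 1 library each.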

Other observations

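Actl6a also serves the INO80, SRCAP and TIP60 complexes, which exchange histone variants and acetylate histones. Of 9 other genes of these complexes, 0 were past 1.5-fold in either direction, 2 had a log2 ratio above 0 and 7 below, and the median was -0.17, beside -0.04 over all genes and -0.25 for Actl6a. The paired AAA+ ATPases of INO80 and TIP60, the most abundant of the 9 by mean TPM over both libraries, were Ruvbl2, with 118 TPM in siChd4, against 147 TPM in siSCR (0.805-fold, 0.752 to 0.861), and Ruvbl1, with 64.3 TPM in siChd4, against 82.7 TPM in siSCR (0.777-fold, 0.709 to 0.850). Kat5, the acetyltransferase of TIP60 and chosen after its value was seen, had 65.7 TPM in siChd4, against 61.1 TPM in siSCR (1.08-fold, 0.983 to 1.18).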
